A study of Homo sapiens with 16 samples.

Results

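The aryl hydrocarbon receptor (AHR) genes described here were 6 of the 25221 genes in the count table. They were found in the table by their gene identifiers and comprised the receptor AHR, its partner ARNT, the repressor AHRR, the feedback enzyme TIPARP and the cytochrome P450 targets CYP1A1 and CYP1B1. MOLM13, an acute myeloid leukaemia line of the M5a subtype, and K562, a chronic myeloid leukaemia line, were cultured with 20 µM Ro 08-2750 (Ro) or with DMSO alone for 4 h, and both arms carried 0.1% DMSO. Ro is a small molecule that the study used as an inhibitor of RNA binding by Musashi-2 (MSI2). Each line gave 4 pairs of DMSO and Ro libraries, 16 in all, from cells at passages 8 to 12 for MOLM13 and 12 to 18 for K562. No genotype differed within a line, Ro and DMSO were the only treatments, and each disease was represented by 1 line. Whether Ro binds AHR was not tested.

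AHR waits in the cytosol in a complex with HSP90 and moves to the nucleus when it binds a ligand, such as a dioxin or a tryptophan metabolite. There it pairs with ARNT, and the pair binds a short DNA core, GCGTG, near genes of xenobiotic metabolism. CYP1A1 and CYP1B1 are the classic readouts of an active receptor. AHRR and TIPARP, also AHR targets, act back on it: AHRR competes with AHR for ARNT, and TIPARP attaches ADP-ribose to the receptor and limits its activity. In blood cells AHR is known for its part in the differentiation of progenitors and in immune responses.

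In RefSeq on GRCh38.p14, AHR lies at chr7:17298652-17346147, ARNT at chr1:150809713-150876599, AHRR at chr5:321714-438285, TIPARP at chr3:156674590-156706770, CYP1A1 at chr15:74719542-74725528 and CYP1B1 at chr2:38067509-38076151. All 6 are protein-coding. AHRR lies wholly inside the readthrough transcript PDCD6-AHRR. AHR, ARNT and TIPARP overlap a non-coding gene or a pseudogene over part of their length, whereas no RefSeq gene overlaps CYP1A1 or CYP1B1. How reads in overlapping genes were assigned is not given in the sources used here, so the level of AHRR is the less certain for it.

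The GCGTG core was looked for on both strands (CACGC on the opposite one) in the 250 bases before each RefSeq start site, where 5 of the 6 genes had an entry. It stood in the window of CYP1A1, in the first windows of AHRR and TIPARP and in a second window of AHRR. It was not in the windows of AHR and ARNT or in the other windows of TIPARP. Of all 35116 windows of the same length, 32.2% held the core, so its presence is common. The longer form TNGCGTG, which contains the core, stood in 4.52% of all windows and, among these genes, only in the first window of AHRR. The windows shown are the first of each gene that holds a core, shown because these 3 genes carry the same letters and differ widely in level. They run 5′ to 3′ on the gene's strand and end at the base before the start site, and capitals mark the core on either strand.
CYP1A1, chr15:74725529-74725778, minus strand: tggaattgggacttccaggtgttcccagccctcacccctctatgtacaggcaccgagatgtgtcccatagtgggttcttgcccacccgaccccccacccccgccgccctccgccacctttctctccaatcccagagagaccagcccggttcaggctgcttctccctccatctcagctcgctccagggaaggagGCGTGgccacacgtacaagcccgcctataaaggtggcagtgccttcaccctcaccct
AHRR, chr5:321464-321713, plus strand: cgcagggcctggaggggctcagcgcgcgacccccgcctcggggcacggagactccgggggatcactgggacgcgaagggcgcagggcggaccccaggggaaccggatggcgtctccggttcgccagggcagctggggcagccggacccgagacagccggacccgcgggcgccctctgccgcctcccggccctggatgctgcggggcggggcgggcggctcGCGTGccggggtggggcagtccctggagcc
TIPARP, chr3:156674340-156674589, plus strand: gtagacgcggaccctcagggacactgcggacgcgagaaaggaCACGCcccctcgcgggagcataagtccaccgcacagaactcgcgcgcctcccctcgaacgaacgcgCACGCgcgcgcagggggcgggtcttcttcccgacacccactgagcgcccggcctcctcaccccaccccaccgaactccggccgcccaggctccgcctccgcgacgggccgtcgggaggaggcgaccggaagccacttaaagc
The core began 57 bases before the start of CYP1A1, 30 bases before that of AHRR, and 208 and 142 bases before that of TIPARP. The cluster of AHR sites best known for CYP1A1 induction lies farther upstream than this window.

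Libraries held 3143129 to 43571060 counts, and the smallest were the K562 DMSO libraries of pairs 2 and 4, with 3143129 and 4383241. Levels are given as CPM (counts scaled to a common library size) after TMM scaling. The kit reads transcripts near their 3′ end, so counts do not grow with transcript length and CPM was compared between genes without a length correction. A count of 3, used as the limit that tells a gene from 0, was worth 0.0679 to 0.861 CPM in single libraries and covers counting error only. Line markers followed the labels as sums: 12 K562 markers summed to 1754 to 3575 CPM in K562 libraries and 5.81 to 10.4 in MOLM13, and 12 MOLM13 markers summed to 911 to 1496 CPM in MOLM13 and 150 to 299 in K562. In DMSO, 8 of 10 MOLM13 markers and 10 of 11 K562 markers tested were higher in their own line at an adjusted p under 0.05 (edgeR). LYZ and CD33 of the MOLM13 list and EPOR of the K562 list were not. HBE1, HOXA10 and FCGR1A were listed at 0 in every library. The counting settings are not given, so such a 0 cannot tell an absent transcript from reads that were not counted. Tests are edgeR's quasi-likelihood test over all genes that passed the count filter, with Benjamini-Hochberg adjusted p (called under 0.05), without and with the pair number as a block.

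**Figure D1:**
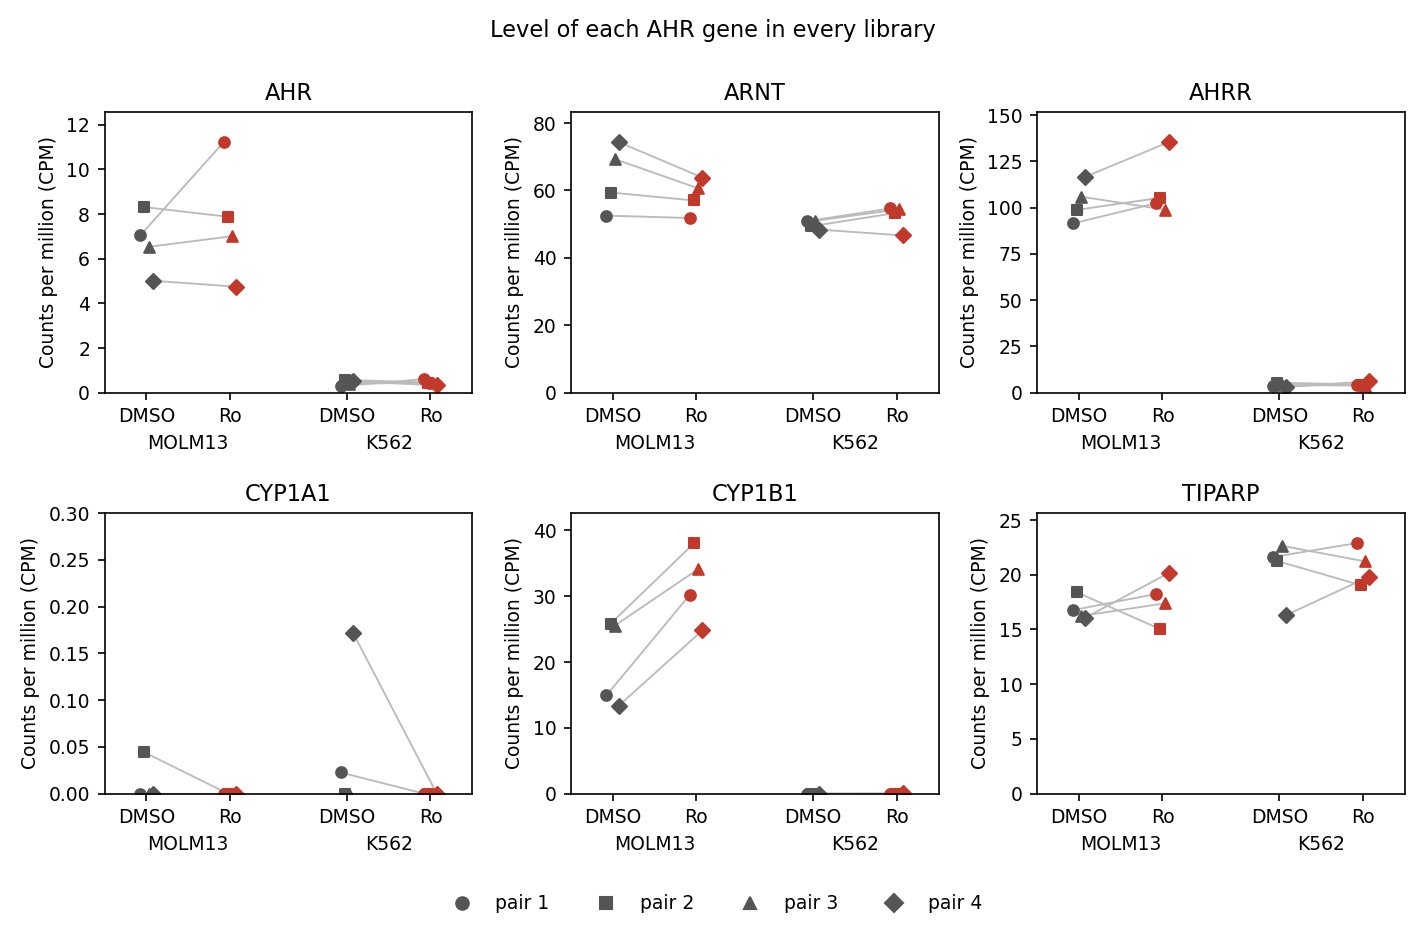
CPM (linear axes from 0, a scale for each gene) of the 6 genes in the 16 libraries, with DMSO grey, Ro red, pairs as symbols and lines joining a pair. CYP1B1 was higher with Ro in each of the 4 MOLM13 pairs, and AHR, AHRR and CYP1B1 lay far lower in K562 than in MOLM13.

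The first question was how much of the pathway each line held without Ro. MOLM13 expressed AHRR most, followed by ARNT, CYP1B1, TIPARP and AHR. K562 expressed ARNT most, followed by TIPARP, AHRR and AHR, with CYP1B1 at 1 count over its 4 DMSO libraries. CYP1A1 was at or near 0 in both lines. AHR, AHRR and CYP1B1 were each higher in MOLM13 than in K562, 3 of the 5 genes tested, whereas 21.1% of all 15268 genes were higher in MOLM13 and 20.3% lower. AHR and CYP1B1 passed the count filter only through their MOLM13 libraries, which favours that direction from the outset. The 3 of 5 is therefore a description and not a test of the pathway.

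AHR, the receptor itself, stood at 7.04, 8.31, 6.53 and 5.02 CPM in MOLM13 DMSO pairs 1 to 4, from 50 to 188 counts a library. In K562 DMSO it stood at 0.294, 0.574, 0.403 and 0.515 CPM, from only 2 to 13 counts. The lines did not overlap. AHR was 17.5-fold higher in MOLM13 (log2 difference 4.13, SE 0.34, n = 4 libraries a line, adjusted p = 4.89e-07, edgeR). In bulk RNA, fewer cells with a transcript and less of it in each cell cannot be told apart.

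AHRR, the repressor, stood at 91.4, 98.7, 106 and 117 CPM in MOLM13 DMSO pairs 1 to 4. In K562 DMSO it stood at 3.66, 5.46, 4.15 and 3.09 CPM. Every MOLM13 library lay above every K562 library, by 25.8-fold (log2 difference 4.69, SE 0.24, adjusted p = 6.75e-09, edgeR). AHRR counts exceeded AHR counts in every DMSO library of both lines. Protein was not measured, and the limit on AHRR reads given above applies. MOLM13 DMSO libraries held 11.9 to 23.3 AHRR counts for each AHR count, with a median of 14.6, and K562 DMSO libraries held 6 to 12.5, with a median of 9.90. These ranges overlapped, and in K562 the ratio rested on as few as 2 AHR counts.

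CYP1B1, a monooxygenase of oestrogens and polycyclic compounds, stood at 14.9, 25.8, 25.5 and 13.4 CPM in MOLM13 DMSO pairs 1 to 4. K562 DMSO libraries held 1 CYP1B1 count in all, in pair 1, against 1657 in MOLM13. Scaled to library size, this is a ratio of 1547, with an exact 95% interval of 277 to 61134 that covers counting error only. The fitted difference was called (adjusted p = 1.39e-08, edgeR), for a gene that passed the filter through MOLM13 alone. With 1 count in K562, its size is no better known than this interval.

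ARNT, the partner that AHR shares with the hypoxia factors, and TIPARP gave no called difference between the lines. ARNT stood at 52.5, 59.4, 69.3 and 74.3 CPM in MOLM13 DMSO and at 50.9, 49.4, 51.0 and 48.4 in K562 DMSO. The lowest MOLM13 library lay above the highest K562 library, but the difference did not pass (log2 0.35, SE 0.19, 95% interval −0.05 to 0.75, adjusted p = 0.147, edgeR). TIPARP stood at 16.8, 18.4, 16.2 and 16.1 CPM in MOLM13 DMSO and at 21.6, 21.2, 22.7 and 16.3 in K562 DMSO, and its ranges overlapped through K562 pair 4. Its difference did not pass either (log2 −0.28, SE 0.20, 95% interval −0.71 to 0.15, adjusted p = 0.283, edgeR). Scaled by library totals alone, the median of all genes moved to a log2 difference of −0.41, ARNT turned to −0.05, and TIPARP reached −0.68 with an adjusted p of 0.0149. The calls over all genes then split into 2023 higher and 5008 lower, against 3215 and 3098 with TMM. A single gene held 4.11 to 22.3% of the counts in MOLM13 DMSO libraries and 0.269 to 6.44% in K562 DMSO libraries. Its part in these shifts was not tested.

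CYP1A1, the most inducible of the targets, gave 3 counts of 317982807 over the 16 libraries. They were single counts in MOLM13 DMSO pair 2 and in K562 DMSO pairs 1 and 4, and all 8 Ro libraries were at 0. No group of 4 libraries reached 3 counts, which are worth 0.0313 to 0.0416 CPM on a group's summed totals, so CYP1A1 RNA was not detectable at this depth in either line or arm. The highest single library, K562 DMSO pair 4, held 1 count or 0.172 CPM, under its own limit of 0.515. CYP1A1 was not tested, since it passed no count filter, and no fold is given.

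Neighbours in the order of levels were separate in most places. In MOLM13 DMSO the ranges of AHRR, ARNT and CYP1B1 did not overlap, nor did those of TIPARP and AHR. CYP1B1, at 13.4 to 25.8 CPM, and TIPARP, at 16.1 to 18.4, overlapped there. With Ro they no longer did, with CYP1B1 at 24.8 to 38.1 and TIPARP at 15.0 to 20.2 CPM. In K562 the ranges of ARNT, TIPARP, AHRR and AHR were apart in both arms, and CYP1A1 and CYP1B1 could not be ordered.

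The second question was what Ro did to these genes within each line. CYP1B1 was the 1 gene of the 6 that was called in any fit, and it rose in MOLM13 in the fit that pairs the libraries. NQO1, a quinone reductase under AHR and NRF2, rose in the same fit. AHR, ARNT, AHRR and TIPARP were not called in either line. In K562 no gene of the 6 was called.

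In MOLM13 Ro libraries CYP1B1 stood at 30.2, 38.1, 34.1 and 24.8 CPM in pairs 1 to 4, against 14.9, 25.8, 25.5 and 13.4 with DMSO. It was higher with Ro in 4 of 4 pairs, by 1.01, 0.56, 0.42 and 0.89 on the log2 scale. The arms overlapped, since Ro pair 4 lay below DMSO pairs 2 and 3, while the order of the pairs differed little between the arms: pair 4 was lowest and pair 2 highest in both. Without the block the log2 change was 0.70 (SE 0.25, adjusted p = 1.00, edgeR). Of the 15031 genes tested 0% were called in that fit, and 126 rising and 49 falling genes had an unadjusted p under 0.05. DESeq2 without the block called 1 gene and limma-voom 0. With the block the change was 0.71 (SE 0.10, 95% interval 0.51 to 0.91, adjusted p = 0.000195, edgeR), a 1.64-fold rise, and CYP1B1 ranked 16 by p among all genes tested. In that fit 0.938% of genes were called higher with Ro and 1.17% lower. Without any 1 of the pairs the blocked change stayed between 0.64 and 0.81, with adjusted p from 0.000527 to 0.00435, and DESeq2 with the block gave an adjusted p of 2.65e-06.

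**Figure D2:**
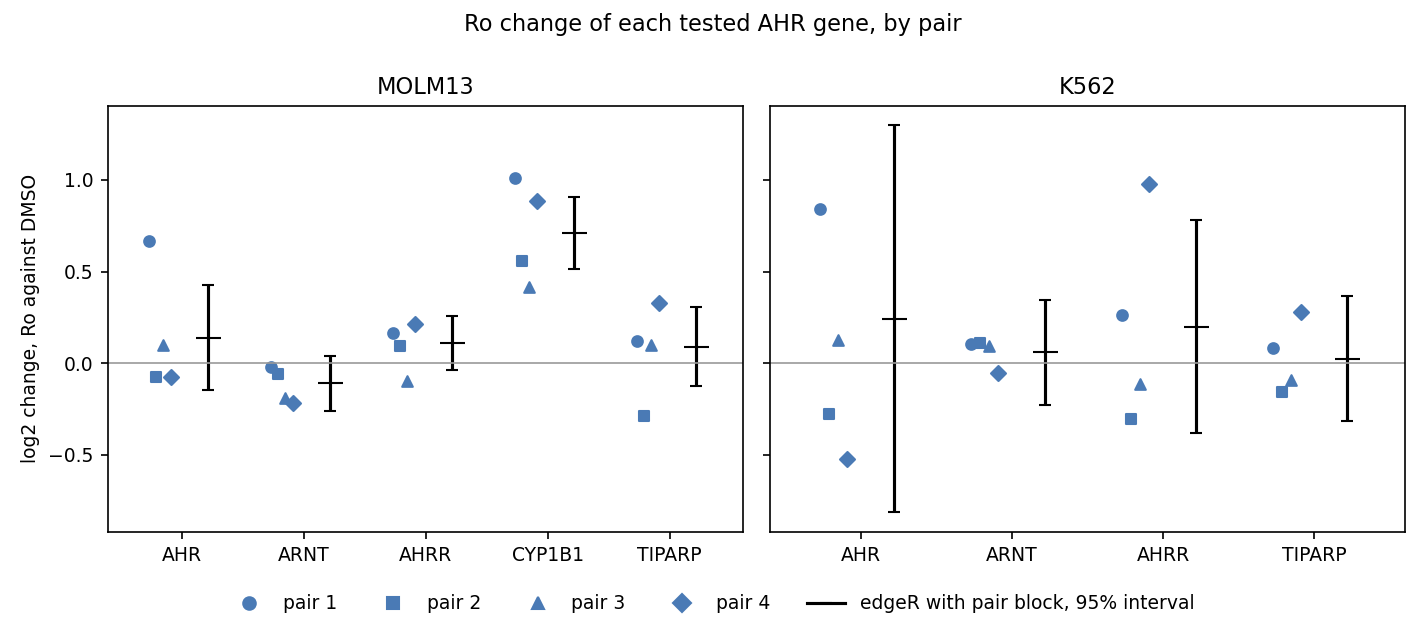
Log2 change, Ro against DMSO, of the members that passed the count filter, by pair (blue symbols), with the blocked edgeR estimate and its 95% interval (black). In MOLM13 the CYP1B1 interval, 0.51 to 0.91, lies above 0, and the intervals of the other genes in both lines include 0.

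The receptor and its partner gave no called change in MOLM13. AHR stood at 11.2, 7.88, 7.01 and 4.75 CPM in Ro pairs 1 to 4. Pair 1 was higher by 0.66 on the log2 scale, and the other pairs lay between −0.08 and 0.10. The change was 0.22 without the block (SE 0.29, 95% interval −0.42 to 0.86, adjusted p = 1.00, edgeR), and −0.04 without the Ro library of pair 1. ARNT stood at 51.8, 57.0, 60.6 and 63.8 CPM with Ro and was lower in 4 of 4 pairs, by small amounts. Its blocked change of −0.11 did not pass (SE 0.07, 95% interval −0.26 to 0.04, adjusted p = 0.459, edgeR).

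The feedback genes in MOLM13 gave no call. AHRR stood at 102, 105, 98.9 and 135 CPM in Ro pairs 1 to 4 and was higher in 3 of 4 pairs, with a blocked change of 0.11 (SE 0.07, 95% interval −0.04 to 0.26, adjusted p = 0.444, edgeR). TIPARP stood at 18.2, 15.0, 17.4 and 20.2 CPM with Ro, also higher in 3 of 4 pairs, with a blocked change of 0.09 (SE 0.10, 95% interval −0.13 to 0.30, adjusted p = 0.716, edgeR). AHRR counts per AHR count ran from 9.12 to 28.5 with Ro, with a median of 13.7, over the DMSO range. Of the 4 targets or feedback genes, then, CYP1B1 was called, AHRR and TIPARP were not, and CYP1A1 had no counts with Ro.

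**Figure D3:**
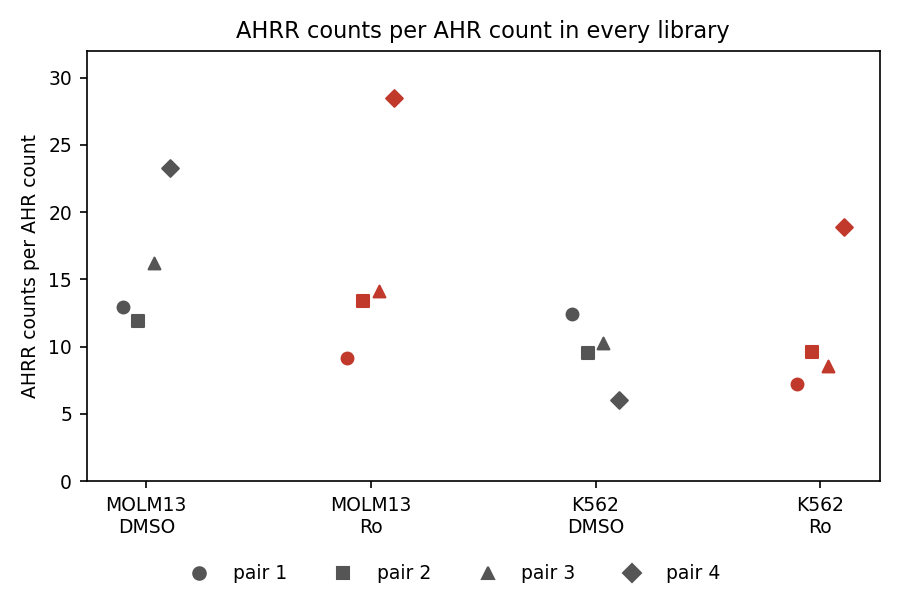
AHRR counts divided by AHR counts in each library (linear axis), by line and arm, with pairs as symbols. The ratio is above 1 everywhere, between 6 and 28.5, and its ranges overlap between DMSO and Ro in both lines.

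In K562 the same genes gave no call, and no gene of 15227 was called with or without the block (0% each). At an unadjusted p under 0.05, 52 genes were higher and 135 lower without the block, and 129 and 193 with it, and DESeq2 with the block called 2 genes. AHR stood at 0.608, 0.456, 0.449 and 0.328 CPM in Ro pairs 1 to 4, from 8 to 11 counts. Its blocked 95% interval, −0.81 to 1.30 on the log2 scale, leaves changes of over 2-fold in range. AHRR stood at 4.41, 4.39, 3.84 and 6.19 CPM with Ro. It was higher by 0.98 in pair 4, whose DMSO library is 1 of the 2 small ones, and between −0.31 and 0.26 in the others. Its change of 0.24 (SE 0.25, adjusted p = 1.00, edgeR) was 0.06 without the Ro library of pair 4. CYP1B1 gave 1 count over the 4 Ro libraries, in pair 4, and was not tested.

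ARNT and TIPARP in K562 had narrower intervals. ARNT stood at 54.7, 53.3, 54.4 and 46.7 CPM with Ro, with a change of 0.06 (SE 0.14, 95% interval −0.24 to 0.36, adjusted p = 1.00, edgeR) that was −0.0010 and −0.0068 under 2 other scalings. TIPARP stood at 22.9, 19.0, 21.2 and 19.8 CPM, with a change of 0.01 (SE 0.16, 95% interval −0.34 to 0.36, adjusted p = 1.00, edgeR). In pairs 1 and 3 alone, which leave out both small libraries, 3.06% of 13667 genes were called with the block, and of the 3 members tested none was among them. That fit rests on only 2 pairs. Leaving out pair 2 alone or pair 4 alone, edgeR with the block called 0 genes.

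Whether Ro acted differently in the lines was tested in 1 fit of all 16 libraries. Of 16224 genes 0% were called without the block and 0% with it. At an unadjusted p under 0.05, 41 genes were higher and 177 lower in K562 relative to MOLM13 without the block, and 476 and 499 with it, and DESeq2 called 0. For AHR, ARNT, AHRR and TIPARP the blocked differences between the lines ran from −0.05 (TIPARP) to 0.18 (ARNT), with adjusted p from 0.772 to 0.949. For CYP1B1 the test holds no information, since K562 had 2 counts over 8 libraries: its SE was 1.98 on the log2 scale. The CYP1B1 rise in MOLM13 is therefore not shown to differ from K562.

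The genes around the receptor were described by list, and in MOLM13 with the block 9 of the 100 genes tested from these lists and the markers, CYP1B1 included, were called. Of these 7 rose and 2 fell, where 0.938% of all genes tested rose and 1.17% fell. The lists were chosen with earlier results of these data known, so these counts are not an independent test of the genes around AHR. Of the other AHR targets, 1 of the 12 tested rose and none fell, against 0.938% and 1.17% of all genes. That was NQO1, at 16.6, 19.2, 39.4 and 11.4 CPM with DMSO and 57.8, 35.0, 70.5 and 23.7 with Ro in pairs 1 to 4. It was higher in 4 of 4 pairs although the arms overlapped, and the change was 1.11 (SE 0.11, adjusted p = 8.48e-06, edgeR with the block), second by p among all genes, and was called without each pair in turn. Without the block its adjusted p was 1.00. In K562 it stood at 57.9 ± 14.6 CPM with DMSO and 73.1 ± 11.2 with Ro (SD, n = 4), higher in 4 of 4 pairs but not called (0.35, SE 0.13, adjusted p = 0.947, edgeR with the block), and the difference between the lines did not pass either (−0.77, SE 0.20, adjusted p = 0.766). The median change of the 12 targets in MOLM13 was 0.11, against 0.0015 over all genes, and in K562 the median of 11 was −0.26 against 0.020. The K562 median was −0.13 without the block and −0.16 over the 8 tested in pairs 1 and 3. None of the 11 was called with all 4 pairs. CYP1A2, CYP2S1 and XDH among them were low, at 0.835, 0.664 and 0.741 CPM in K562 DMSO. UGT1A1 and UGT1A6, which share their last exons with sister genes, were listed at 0 in every library, with the same limit as HBE1.

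**Figure D4:**
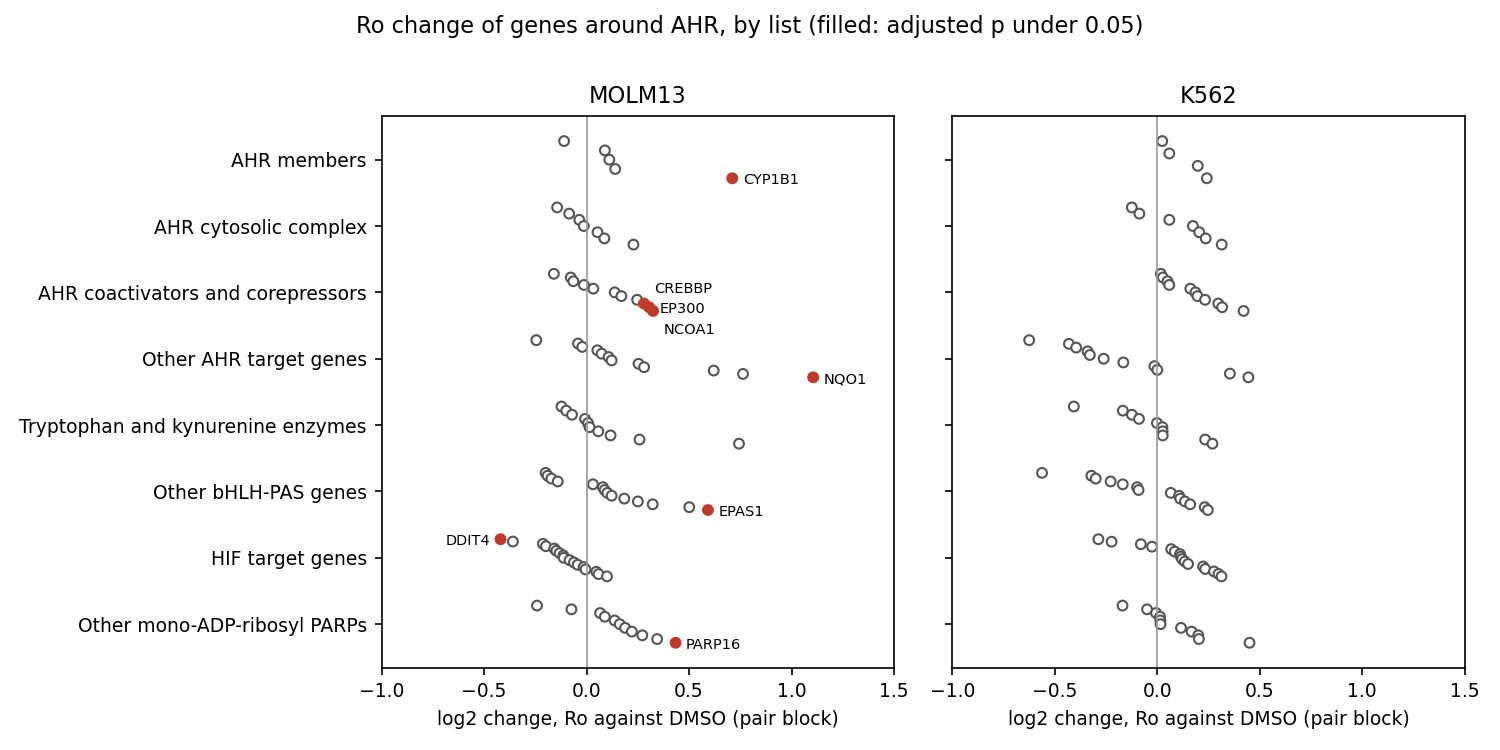
Blocked log2 change, Ro against DMSO, of each tested gene of the lists, for MOLM13 (left) and K562 (right), with genes called at an adjusted p under 0.05 filled and named. In MOLM13 NQO1 (1.11) and CYP1B1 (0.71) lie farthest right among the called genes, and no gene is called in K562.

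The receptor's cytosolic complex gave 0 calls of 7 tested in either line. With the block, 0.938% of all genes rose and 1.17% fell in MOLM13 and 0% were called in K562, so 7 genes are too few to read this. HSP90AB1, the most abundant of it, stood at 4995 ± 1027 CPM with DMSO and 5202 ± 750 with Ro in MOLM13. HSP90AA1, the stress-inducible chaperone, stood at 3135 ± 510 and 3671 ± 869 (SD, n = 4 each), higher in 4 of 4 pairs and not called (adjusted p = 0.0997, edgeR with the block). The ubiquitin ligase STUB1 was listed at 0 in every library, which cannot be read as absence, as for HBE1 above.

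Of the 11 coactivators and corepressors, 3 rose in MOLM13 with the block and none fell, where 0.938% of all genes rose and 1.17% fell. NCOA1, a steroid receptor coactivator, went from 37.0 ± 9.74 to 46.1 ± 12.9 CPM (log2 0.32, adjusted p = 0.0362). The histone acetyltransferases EP300 and CREBBP rose by 0.31 (adjusted p = 0.0324) and 0.28 (adjusted p = 0.0420), all in edgeR. Each was higher in 4 of 4 pairs. These calls were near the threshold: without 1 pair they were called in 2, 1 and 1 of 4 fits, and DESeq2 with the block put NCOA1 at 0.0549. The median change of the list was 0.14 in MOLM13 and 0.19 in K562, where 11 of 11 lay above 0 and none was called. In K562 pairs 1 and 3 alone the median was 0.09, with 7 of 11 above 0.

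Partners and relatives gave single calls, in a fit that called 0.938% of all genes higher and 1.17% lower. Of 14 other bHLH-PAS genes, the family of AHR and ARNT, the hypoxia factor EPAS1 rose in MOLM13 from 4.92 ± 1.26 to 7.30 ± 1.28 CPM (log2 0.59, adjusted p = 0.0433, edgeR with the block), and was called in 1 of 4 fits without a pair. Of 17 hypoxia-inducible factor (HIF) targets, which also use ARNT, 1 was called, and it fell: DDIT4, an inhibitor of mTORC1, with a change of −0.42 (adjusted p = 0.0175, edgeR with the block). DDIT4 stood at 81.8, 110, 158 and 999 CPM with DMSO and 48.0, 108, 120 and 663 with Ro in pairs 1 to 4, so pair 4 was far above the rest in both arms, and it was called in 1 of 4 fits without a pair. In K562 pairs 1 and 3 alone, 3.06% of 13667 genes were called with the block. NQO1 and DDIT4 were both higher with Ro there (0.37, adjusted p = 0.00928, and 0.32, adjusted p = 0.0383, edgeR with the block). They were 1 of 8 other AHR targets and 1 of 15 HIF targets tested, and neither was called with all 4 pairs. A marker of each line was called in that fit too. CSF1R, 1 of 7 tested of the MOLM13 list, was higher (0.35, adjusted p = 0.0203, edgeR with the block). GATA1, 1 of 11 tested of the K562 list, was lower (−0.36, adjusted p = 0.0174, edgeR with the block). The part of these markers in the other values was not tested. These 4 genes were picked from that fit after their values were seen.

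Among the 11 other PARP enzymes that attach single ADP-ribose units, the kind TIPARP is, 1 rose and none fell in MOLM13 with the block, against the same shares of all genes: PARP16 (log2 0.43, adjusted p = 0.0420, edgeR). It stood at 8.31, 8.71, 9.05 and 8.22 CPM with DMSO and 11.3, 12.3, 11.3 and 11.0 with Ro, and its arms did not overlap. It was called in 0 of 4 fits without a pair, and not by DESeq2 with the block (adjusted p = 0.101). Of the 10 tested enzymes that make or use kynurenine, a tryptophan product that can bind AHR, none was called in either line. The shares of all genes were those above in MOLM13 and 0% in K562. QPRT stood at 38.3 ± 13.5 CPM with DMSO and 39.1 ± 11.1 with Ro in MOLM13, and KYAT3 at 18.1 ± 3.74 and 16.9 ± 3.04 (SD, n = 4 each). Of the MOLM13 markers, CEBPA, a myeloid transcription factor, fell by 0.29 on the log2 scale with the block (adjusted p = 0.0226, edgeR). It was called in 2 of 4 fits without a pair, with adjusted p up to 0.269, and its part in the other changes was not tested.

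Across the 16 libraries, after the mean of each line was taken out, the genes whose log2 CPM ran most like that of each member were listed, 3 for each member. CYP1B1 ran most like LINC01021 (r = 0.89), ULK2 (0.88) and GEM (0.86). Its r with AHR was 0.23 over both lines, 0.49 in MOLM13 alone and −0.80 in K562 alone. GEM and LINC01021 were low, with mean levels of 0.670 and 4.51 CPM in MOLM13. In K562 CYP1B1 itself was at 2 counts, so the K562 part of its values holds little information. ARNT ran most like LMNB1 (0.91), PHF19 (0.91) and RAD23B (0.90), and AHRR like FAM20C (0.85), PPIC (0.85) and ARRDC1 (0.83). AHR ran most like KDM5D (0.86), RELL1 (0.85) and TNNI1 (0.85), and TIPARP like ACSBG1 (0.81), RSPRY1 (0.79) and FUNDC1 (0.79). TNNI1 (0.438 CPM in MOLM13 and 0.359 in K562) and PPIC (0.368 and 0.212) were low in both lines, and FAM20C was low in K562 (0.100). AHR and AHRR had an r of −0.29 over both lines, −0.67 in MOLM13 alone and −0.05 in K562 alone. In K562 AHR held only 2 to 13 counts a library, which limits each of its values there. These are descriptions over 16 libraries, picked as the highest of all genes, and the libraries share pairs, arms and depth.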

How the data were processed

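Ro and DMSO were compared after 4 h in MOLM13 and K562 with 3′ end RNA sequencing (QuantSeq FWD kit). The authors deposited 1 table of raw read counts per gene, with no normalisation. The submitters' processing notes name hg38, Trim Galore, STAR 2.5.3a and SAMtools 1.5. The counting program, annotation and strand setting are not given in the sources used here. Spike-in controls were not used here. All 16 columns were matched to samples by their labels, and 0 columns had no sample.

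Counts were analysed in R 4.3.3 with edgeR 4.0.16 (TMM, a gene needing 10 or more counts in 4 or more libraries of a fit, quasi-likelihood test, Benjamini-Hochberg adjustment over all genes tested, threshold 0.05). DESeq2 1.42.0 and limma-voom (limma 3.58.1) were alternatives, as were other scalings, count filters and leaving out libraries or pairs. The fits were tested on simulated data. Log2 CPM by pair used a prior count of 2. Python 3.11.15 with pandas 2.3.3, numpy 2.4.6, scipy 1.17.1 and matplotlib 3.10.9 was used for summaries and plots.

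The labels number DMSO and Ro samples as pairs. Same-numbered libraries deviated together, with mean correlations of 0.570 in MOLM13 (0.385 to 0.831) and 0.279 in K562 (0.109 to 0.416), so the number was used as a block beside the fit without it. Numbers did not pair the lines (mean −0.0434). Whether pairs are separate cultures is not stated, so p-values measure the spread between these samples, which may be technical.

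The members and lists were chosen with earlier results of these data known. Named genes were the 6 members. From every other list they were the genes called with or without the block, up to 4 in each direction, and otherwise the 2 with the highest mean CPM. For each member tested over all libraries the 3 genes with the highest correlation were added. RefSeq (GRCh38.p14) gave positions and promoter windows, by gene identifier, and 25116 of 25221 identifiers matched. Coordinates come from RefSeq and not from the count table.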

Additional observations from a re-analysis of the deposited data

How the results depend on the processing

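Of 389 alternative values of the members' log2 changes over 19 results, 352 kept their direction and their side of the threshold, 7 passed it where the reported value had not, 30 changed sign and 0 were lost. The Ro values that changed sign were not called in the report's fit. The pair block changed the call of CYP1B1 in MOLM13 alone among the members. In MOLM13 the count of genes called, 0 without the block, with a replicate block was 317 in edgeR and 266 in DESeq2, and 106, 187, 49 and 358 with the block but without pair 1, 2, 3 or 4, and DESeq2 without the block called 1. In K562 it was 2 with the block in DESeq2 and 418 with the block in pairs 1 and 3 only, but 0 in edgeR with the block without pair 2 or without pair 4. In K562, ARNT turned to −0.0010 with upper-quartile scaling and −0.0068 with library totals, and AHRR to −0.018 with the block without pair 4. TIPARP in K562 turned to −0.022 and −0.048 with the block without pair 1 or 4, −0.016 in pairs 1 and 3, −0.00028 in DESeq2, −0.0082 in limma-voom, −0.044 and −0.045 with upper-quartile and library-total scaling, and −0.0095 with at least 50 counts. TIPARP in MOLM13 turned to −0.011 with the block without pair 4. The AHR difference between the lines' Ro changes turned to −0.00038 in limma-voom, −0.074 and −0.043 with upper-quartile and library-total scaling and −0.0067 with at least 50 counts. With library totals the ARNT difference between the lines in DMSO turned to −0.054 and that of TIPARP reached −0.68. Leaving out 1 library at a time gave AHR in MOLM13 −0.037 to 0.41, TIPARP in K562 −0.071 to 0.067, and, for the difference between the lines, AHR −0.25 to 0.26, AHRR −0.030 to 0.25 and CYP1B1 −2.23 to 0.74. The causes were not tested. Depth limits AHR, CYP1A1 and CYP1B1 in K562, at 0 to 13 counts a library.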
